A study of Mus musculus with 6 samples.

Results

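Aminoacyl-tRNA synthetases are the enzymes that join each amino acid to its tRNA. Their genes were examined here in macrophages with a conditional deletion of Trmt61a, which encodes the catalytic protein of the tRNA m1A writer (m1A is N1-methyladenosine). The family was chosen with earlier results of these data known. Its genes were taken by symbol: names of 1 capital letter followed by "ars", with or without a final digit, together with Farsa, Farsb, Eprs, Tarsl2 and the partner genes Aimp1, Aimp2 and Eef1e1. Of 16519 genes in the count table, 41 met this rule. They comprised 21 cytosolic enzyme genes, 17 mitochondrial enzyme genes, whose names end in 2, and 3 scaffold genes. Aimp2 and Tarsl2 do not follow that naming, since Aimp2 is a scaffold protein and Tarsl2 a paralog of the cytosolic threonyl enzyme. Kars and Gars, counted here as cytosolic, each encode both a cytosolic and a mitochondrial form.

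The RNA came from bone marrow derived macrophages (BMDMs), cells differentiated in the dish from marrow precursors, and was measured by bulk RNA sequencing. TRMT61A-KO cells (KO, 3 libraries) came from Trmt61a f/f LysmCre mice, in which Cre recombinase is expressed from a myeloid gene, and TRMT61A-WT cells (WT, 3 libraries) from Trmt61a f/f mice. Both genotypes therefore carried the floxed allele and only KO carried Cre, so loss of Trmt61a and presence of Cre cannot be told apart. The sources used here do not give the age or sex of the mice, a stimulus, or the number of mice and cultures behind each genotype's 3 libraries. The p-values thus reflect the spread among these libraries alone, and that spread may be technical.

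In the cytosol, 1 enzyme usually serves each amino acid, and several of these enzymes are held with Aimp1, Aimp2 and Eef1e1 in a large assembly, the multi-tRNA synthetase complex. Mitochondria translate their own small genome with a separate set of synthetases, which are encoded in the nucleus and imported. Many cytosolic synthetase genes are known targets of Atf4, the transcription factor of the response to amino acid shortage. Wars, the cytosolic tryptophanyl enzyme, is also known to be induced by interferon gamma in macrophages and other cells.

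The libraries held between 37899665 and 40710502 counts in KO and between 37021855 and 41033179 in WT. Trmt61a stood at 0.530, 0.755 and 0.539 CPM (counts scaled to a common library total) in the KO libraries, against 4.96, 3.89 and 5.06 CPM in the WT libraries. It was lower in every KO library (log2 fold change -2.92, SE 0.28, adjusted p = 0.00219 by edgeR's quasi-likelihood test). All 10 macrophage markers examined were present, summing to between 12413 and 14194 CPM in KO and between 12689 and 13694 CPM in WT. Neutrophil markers, also 10 of 10 present, summed to between 1614 and 2588 CPM in KO and between 1628 and 2967 CPM in WT, with the lowest sums in KO 1 and WT 2. Of the other marker lists, stromal genes (8 of 8 present) summed to between 139 and 324 CPM in KO and between 137 and 218 CPM in WT. The mast cell and basophil (5 of 8 with a row), dendritic cell (6 of 7), lymphocyte (6 of 7) and erythroid (5 of 5) lists each summed to at most 4.14 CPM in a KO library and 5.06 CPM in a WT library.

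A sequence element known from the amino acid response was found in a window around the start of some cytosolic genes and of no mitochondrial gene examined. Promoter windows from RefSeq (GRCm38.p6, the assembly of mm10), running from 250 bases upstream of a gene's start to 50 bases downstream, were matched for 31 of the 41 genes. The composite element to which Atf4 binds with C/EBP proteins was searched as TGATGNAA on both strands. It was found in 5 of 14 cytosolic genes (35.7%), in 0 of 14 mitochondrial genes and in 0 of 3 scaffold genes. In the RefSeq windows of all genes its share was 4.51%, and in those of the genes tested for expression 2.80%. A match is a run of letters and not a measured binding site, and absence from these windows leaves the rest of each gene unsearched. The genes with a match were Aars, Gars, Iars, Tars and Yars, for alanine, glycine, isoleucine, threonine and tyrosine. Aars, Iars, Tars and Yars held the variant TGATGCAA, and Gars held TGATGAAA at 30 bases before its start. The windows of the 4 genes with TGATGCAA are shown because they carry the element, with the element in capitals, on the gene's own strand and 5′ to 3′.
Aars, chr8:111033592-111033841, plus strand, the 250 bases upstream of the start: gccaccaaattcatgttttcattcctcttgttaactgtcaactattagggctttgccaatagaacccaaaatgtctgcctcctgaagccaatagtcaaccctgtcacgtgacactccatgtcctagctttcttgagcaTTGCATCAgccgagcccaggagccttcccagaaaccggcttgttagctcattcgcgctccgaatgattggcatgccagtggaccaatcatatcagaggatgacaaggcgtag
Tars, chr15:11399659-11399908, minus strand, the 250 bases upstream of the start: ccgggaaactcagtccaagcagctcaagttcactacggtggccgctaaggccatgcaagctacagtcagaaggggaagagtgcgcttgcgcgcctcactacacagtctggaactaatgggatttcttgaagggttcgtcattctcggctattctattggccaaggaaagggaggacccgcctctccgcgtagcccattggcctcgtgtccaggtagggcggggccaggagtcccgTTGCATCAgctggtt
Iars, chr13:49682126-49682155, plus strand, 30 bases around the element: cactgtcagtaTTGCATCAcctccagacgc
Yars, chr4:129189895-129189924, plus strand, 30 bases around the element: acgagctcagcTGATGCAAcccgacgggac
In Aars, Iars and Tars the element is read on the opposite strand (TTGCATCA), and in Yars on the gene's strand. It begins 112 bases before the start in Aars and 15 bases before it in Tars, and at the eighth base from the start in Iars and the fourth in Yars. Aars holds a further match of the TGATGAAA form from the tenth base after its start. The start used lies inside the RefSeq gene span, by 6064 bases for Aars and by 169 bases for Yars.

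Cytosolic synthetase transcripts were more abundant than their mitochondrial counterparts. Levels of different genes are compared as CPM per kb of exon, with exon lengths from GENCODE M21. The median over the 21 cytosolic genes was 16.2 CPM per kb in KO and 17.2 CPM per kb in WT, and over the 17 mitochondrial genes it was 3.41 CPM per kb in KO and 3.48 CPM per kb in WT. In all 18 pairings of a cytosolic and a mitochondrial gene for the same amino acid, with Tarsl2 left aside, the cytosolic level was the higher in each of the 6 libraries. Eprs was paired with both Ears2 and Pars2, and Fars2 with both Farsa and Farsb, so not all pairings are separate. Cars and Cars2, the cysteinyl enzymes, were nearly level in KO 1, at 6.96 CPM per kb for Cars and 6.95 CPM per kb for Cars2.

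The gap between compartments varied widely by amino acid. Nars, the asparaginyl enzyme, was the most abundant of all, at 78.9 ± 4.25 CPM per kb in KO and 77.7 ± 6.91 CPM per kb in WT (SD, n = 3 each). Its mitochondrial counterpart Nars2 stood at 1.17 ± 0.163 CPM per kb in KO and 1.23 ± 0.246 CPM per kb in WT (SD, n = 3 each), which makes Nars over Nars2 68.8 ± 12.3 in KO and 64.2 ± 7.88 in WT. The leucyl and cysteinyl pairs lay at the other end. Lars over Lars2 was 1.27 ± 0.182 in KO and 1.21 ± 0.138 in WT, and Cars over Cars2 was 1.33 ± 0.292 in KO and 1.24 ± 0.0215 in WT (SD, n = 3 each). Nars had 236, 240 and 217 CPM in KO, against 238, 240 and 204 CPM in WT, and its groups overlapped (log2 fold change 0.02, 95% interval from -0.14 to 0.18). Qars, the glutaminyl enzyme, came next in level per kb, with 128, 126 and 116 CPM in KO, against 134, 132 and 126 CPM in WT (log2 fold change -0.08, 95% interval from -0.21 to 0.05). Its groups overlapped, with KO 3 lowest. Kars, the lysyl enzyme of both compartments, had 74.0, 73.7 and 79.3 CPM in KO, against 81.4, 77.2 and 72.3 CPM in WT, and its groups overlapped. Per kb it followed at 33.7 ± 1.42 CPM per kb in KO and 34.3 ± 2.03 CPM per kb in WT (SD, n = 3 each), with a log2 fold change of -0.02 (95% interval from -0.17 to 0.12). In the cytosolic set Tarsl2 was lowest, at 1.72 ± 0.199 CPM per kb in KO and 2.08 ± 0.238 CPM per kb in WT, below Tars2 in every library. The level of Mars2, the mitochondrial methionyl enzyme, depends on its annotation: GENCODE gives 11294 bases of exon and RefSeq a gene of 2882 bases. Mars1 over Mars2 was 20.6 ± 0.292 in KO and 22.2 ± 1.14 in WT with the GENCODE length, and 5.27 in KO and 5.64 in WT with the RefSeq length.

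**Figure D1:**
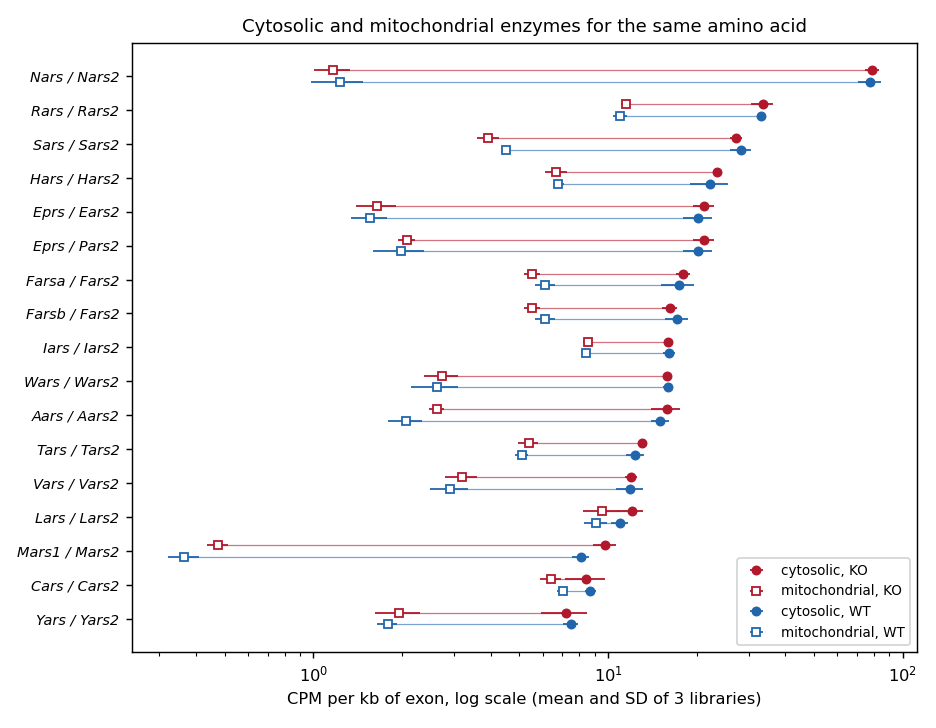
Levels of the cytosolic (filled circles) and mitochondrial (open squares) enzyme genes for the same amino acid, in CPM per kb of exon on a log axis, as mean and SD of 3 KO (red) and 3 WT (blue) libraries. The cytosolic level is the higher in each of the 17 pairings drawn, of 18, most widely for Nars and Nars2 (68.8 in KO and 64.2 in WT) and least for Lars and Lars2 (1.27 in KO and 1.21 in WT).

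The question for each gene was whether its level differed between KO and WT macrophages. None of the 41 genes passed the threshold. All 41 had been kept by the filter on low counts, with between 112 and 9561 counts in a library, so that none was left untested. With edgeR's quasi-likelihood test 0 of 41 had an adjusted p under 0.05, and the count was 0 with DESeq2 and limma voom too. Of all 12605 tested genes 4 passed in edgeR (0.0317%). At an unadjusted p under 0.05 each of the 3 tools gave the same 2 genes, Mars1 and Aars2, both higher in KO. Over all tested genes 3.10% had an unadjusted p under 0.05, made up of 1.46% of tested genes that were higher and 1.64% that were lower in KO.

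The 95% intervals give the precision of these comparisons. They rest on the spread among these libraries alone, which may be technical, so they may not bound the difference between genotypes. For 38 of the 41 genes the 95% interval of the fold change lay within 1.5-fold in either direction. The same held for 9121 of all 12605 tested genes. Among the 41, the exceptions at 1.5-fold were Tarsl2, Mars2 and Aars2. Cytosolic genes were measured more precisely than mitochondrial ones, with a median standard error of the log2 fold change of 0.08 for the cytosolic and 0.14 for the mitochondrial set. The median level was 50.9 CPM for the cytosolic genes and 12.5 CPM for the mitochondrial genes.

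**Figure D2:**
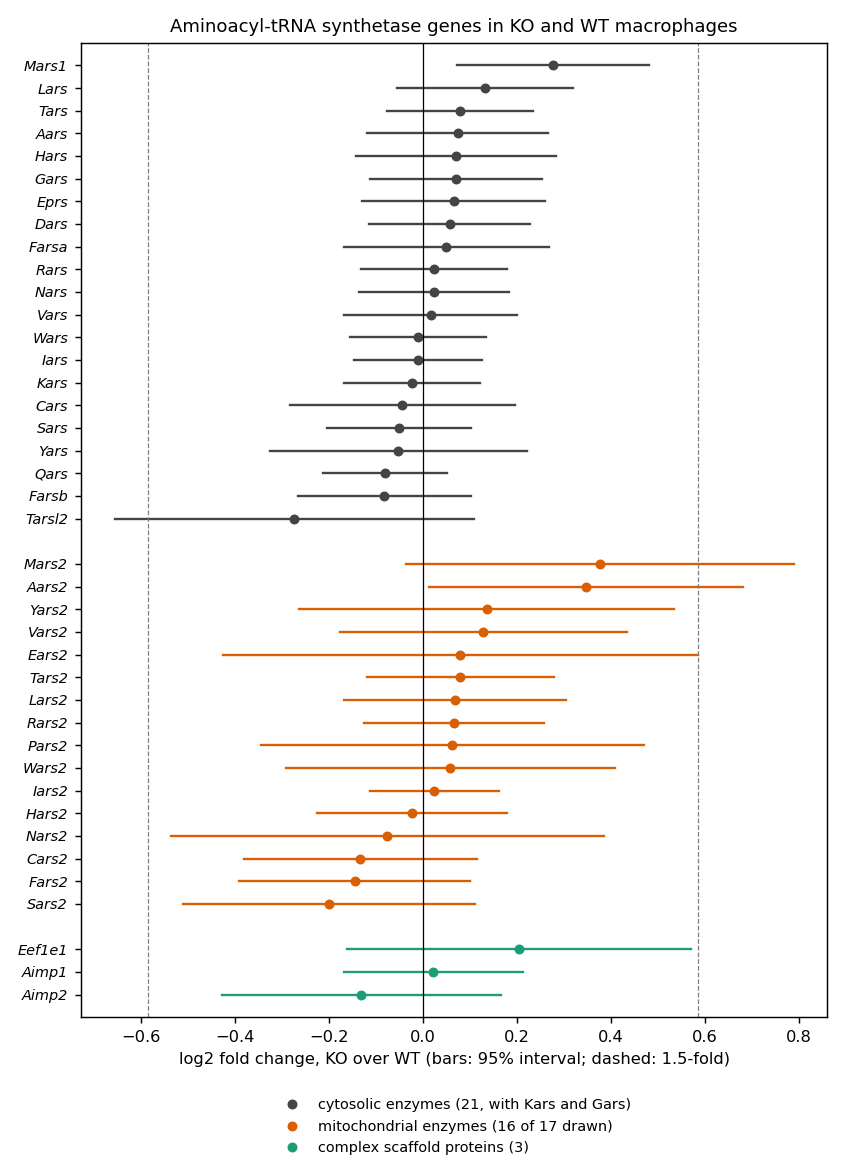
Log2 fold change of each gene, KO over WT, with its 95% interval from edgeR, for 21 cytosolic enzymes, 16 of the 17 mitochondrial enzymes and 3 scaffold proteins; dashed lines mark 1.5-fold in either direction. No gene drawn passed after adjustment over 12605 genes, the intervals of Mars1 and Aars2 lie above 0, and those of Tarsl2, Mars2 and Aars2 reach past 1.5-fold.

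The methionyl enzymes had the highest fold change in each compartment. Mars1 (chromosome 10, 127296221 to 127311786), which charges the cytosolic initiator and elongator methionine tRNAs and sits in the multi-synthetase complex, had 26.1, 29.4 and 31.4 CPM in KO, against 23.0, 22.9 and 25.8 CPM in WT. Every KO library lay above every WT library, with KO 1 and WT 3 nearly level. For KO over WT edgeR gave 0.28 on the log2 scale (SE 0.09, 95% interval from 0.07 to 0.48, unadjusted p = 0.0125, adjusted p = 0.99995). Over 14 alternative analyses it ran from 0.22 to 0.34, and the lowest adjusted p was 0.750 (without KO 1). Exons of Mars1 share 68 bases, on the opposite strand, with exons of Ddit3, the gene for the stress-induced factor CHOP. Whether reads were counted by strand is not stated, so reads from those bases cannot be assigned. Ddit3 stood at 16.3, 16.0 and 16.9 CPM in KO and at 15.2, 14.5 and 15.5 CPM in WT, a log2 fold change of 0.12. The part of Ddit3 reads in the Mars1 difference was not tested.

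Mars2 (chromosome 1, 55237177 to 55240058), which charges the mitochondrial methionine tRNA, had 4.88, 5.46 and 5.70 CPM in KO, against 3.88, 3.79 and 4.70 CPM in WT. Its values did not overlap between genotypes either (edgeR log2 fold change 0.38, 95% interval from -0.04 to 0.79, unadjusted p = 0.0707). Aars2 (chromosome 17, 45503515 to 45520843), the mitochondrial alanyl enzyme, had 8.48, 8.46 and 9.38 CPM in KO, against 6.61, 6.18 and 7.91 CPM in WT. All KO values again lay above the WT values (edgeR log2 fold change 0.35, 95% interval from 0.01 to 0.68, unadjusted p = 0.0435, adjusted p = 0.99995). Its unadjusted p was under 0.05 in 8 of the 14 alternatives, and of the libraries left out singly it stayed so without WT 3 alone. Aars, its cytosolic counterpart, had 0.07 with a 95% interval from -0.12 to 0.27.

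Sars2, the mitochondrial seryl enzyme, was the only gene whose KO values all lay below the WT values. It had 8.03, 6.85 and 7.10 CPM in KO, against 8.48, 8.61 and 8.16 CPM in WT, and edgeR gave -0.20 on the log2 scale (95% interval from -0.51 to 0.11, unadjusted p = 0.182). In total 3 genes were separated with KO higher, against a background of 4.05% of tested genes, and 1 with KO lower, against 4.59%. These 4 of 41 are near the 8.65% of all tested genes whose KO and WT values did not overlap. With 3 against 3 libraries an exact two-sided permutation test cannot go below p = 0.1.

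**Figure D3:**
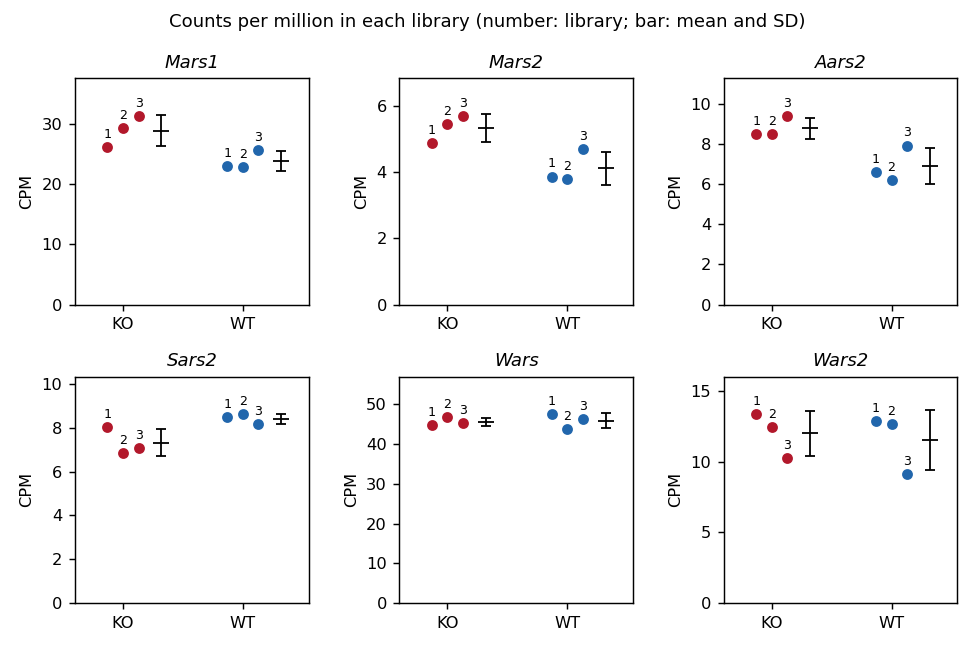
CPM of Mars1, Mars2, Aars2, Sars2, Wars and Wars2 in each KO (red) and WT (blue) library, on axes from 0, with the mean and SD of 3 libraries beside the points. KO values of Mars1, Mars2 and Aars2 all lie above the WT values and those of Sars2 all below, while those of Wars and Wars2 overlap.

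The tryptophanyl pair includes a gene induced by interferon gamma, Wars. Wars (chromosome 12, 108860030 to 108894175) had 44.7, 46.8 and 45.2 CPM in KO, against 47.5, 43.9 and 46.4 CPM in WT. The genotypes overlapped (log2 fold change -0.01, 95% interval from -0.15 to 0.13). In percent of the WT level, that interval runs from 89.8% to 110%. The log2 fold change of Wars ran from -0.04 to 0.01 over the 14 alternative analyses. Wars2, the mitochondrial enzyme, had 13.4, 12.5 and 10.3 CPM in KO, against 12.9, 12.7 and 9.11 CPM in WT, a log2 fold change of 0.06 with a 95% interval from -0.29 to 0.41. It was lowest in KO 3 and in WT 3. Of 15 other genes induced by interferon gamma that were tested, 8 had a fold change above 0 and 7 below. By edgeR 0 of the 15 reached an unadjusted p under 0.05, and 0 an adjusted one.

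Fold changes of both sets of enzymes centred near 0. The median log2 fold change was 0.06 over the 17 mitochondrial genes, 11 of them above 0, and 0.02 over the 21 cytosolic genes, 12 of them above 0. Over all tested genes the median was 0.00 and 6308 of 12605 lay above 0. The mitochondrial median exceeded the cytosolic one by 0.04. A second measure took, in each library, the median deviation of log2 CPM from each gene's own mean. By it KO minus WT was 0.0194 for the mitochondrial and 0.0119 for the cytosolic genes. The standard error of the gap by this second measure was 0.057, larger than the gap by either measure. Without 1 library at a time the gap between the median log2 fold changes ran from 0.00 to 0.07. The mitochondrial median ran from 0.02 (without WT 3, and also without KO 2) to 0.08. The cytosolic median ran from -0.04 (without WT 2) to 0.07 (without KO 1). Together the 21 cytosolic genes took between 0.132% and 0.142% of all counts in KO and between 0.132% and 0.141% in WT. The 17 mitochondrial genes took between 0.0260% and 0.0273% in KO and between 0.0258% and 0.0265% in WT. Among the 18 pairings, in which Eprs and Fars2 each recur, 8 had both fold changes above 0, 3 had both below 0 and 7 had opposite signs.

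Other divisions of the family gave similar values. For the multi-synthetase complex, 11 genes (Dars, Eprs, Iars, Kars, Lars, Mars1, Qars, Rars and the 3 scaffold genes), the median was 0.02, and for the 13 cytosolic enzymes outside it 0.02. Of the scaffold genes, Eef1e1 had 7.03, 8.81 and 9.84 CPM in KO, against 7.02, 6.91 and 8.38 CPM in WT, and its groups overlapped (log2 fold change 0.20, 95% interval from -0.16 to 0.57). Aimp1, which also has a secreted cytokine form, had a log2 fold change of 0.02, and Aimp2 had -0.13. Reads of Aimp2 are uncertain because 487 bases, 40.8% of its exon length, overlap Eif2ak1 on the opposite strand. The class I enzymes, 18 genes with a Rossmann-fold catalytic core, had a median of 0.04, and the 19 class II enzymes, with a core of antiparallel strands, 0.02. Eprs joins a class I and a class II enzyme in 1 chain and had 0.06. Tarsl2 had the lowest fold change of the family, with 4.85, 5.51 and 6.12 CPM in KO and 7.26, 5.80 and 6.89 CPM in WT. Its groups overlapped (log2 fold change -0.27, 95% interval from -0.66 to 0.11). Lars, the leucyl enzyme, whose human counterpart also serves as a leucine sensor for mTORC1, had 0.13, and Farsa and Farsb, the 2 subunits of the phenylalanyl enzyme, had 0.05 and -0.08. Hars and Hars2 are divergent neighbours whose exons overlap by 195 bases and had 0.07 and -0.02.

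Within each genotype most cytosolic synthetases lay low in 1 library, KO 1 and WT 2. In KO 1, 16 of the 21 cytosolic genes lay below their own mean over the 6 libraries, against 7 in KO 2 and 4 in KO 3. In WT 2 it was 17 of 21, against 5 in WT 1 and 9 in WT 3. Of the 17 mitochondrial genes, 8, 8 and 6 lay below their mean in KO 1, KO 2 and KO 3, and 5, 8 and 10 in WT 1, WT 2 and WT 3. These counts were not set against all tested genes. The median log2 deviation of the cytosolic genes was -0.05 in KO 1, 0.03 in KO 2 and 0.06 in KO 3, and 0.05 in WT 1, -0.07 in WT 2 and 0.02 in WT 3. Over all tested genes it lay between -0.000234 (KO 1) and 0.00373 (WT 3). For the 5 genes with the Atf4 element in the promoter window it was -0.13, 0.03 and 0.16 in KO 1 to KO 3, and 0.05, -0.10 and 0.02 in WT 1 to WT 3. These 5 are among the 21 cytosolic genes. For the 16 other cytosolic genes it was -0.04, 0.03 and 0.05 in KO 1 to KO 3, and 0.06, -0.05 and 0.02 in WT 1 to WT 3. KO 1 and WT 2 were the lowest of their genotypes for the 5 and for the 16. Aars, one of the 5, stood at 79.2, 94.7 and 98.8 CPM in KO and at 86.0, 80.5 and 92.8 CPM in WT. Exons of Aars share 1326 bases, 23.1% of their length, with Exosc6 on the same strand. Exosc6 is not among the counted genes, and the part of its reads in the Aars values was not tested. Over the 14 alternative analyses the log2 fold change of Aars ran from 0.00968 (without KO 3) to 0.16 (without KO 1), and it was 0.11 with KO 1 and WT 2 both left out. Its unadjusted p was under 0.05 in 1 of the 14, without KO 1, where the adjusted p was 0.910 in edgeR.

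Other gene groups were also lowest in KO 1 and WT 2, while macrophage markers were highest there. For 18 proliferation genes the median log2 deviation was -0.40 in KO 1, 0.14 in KO 2 and 0.37 in KO 3, and -0.05 in WT 1, -0.40 in WT 2 and 0.34 in WT 3. For 10 neutrophil markers it was -0.46, 0.22 and 0.27 in KO 1 to KO 3, and -0.11, -0.40 and 0.48 in WT 1 to WT 3. Stromal markers were lowest in the same libraries, with sums of 139 CPM in KO 1 and 137 CPM in WT 2. Macrophage markers went the other way, with a median log2 deviation of 0.07, -0.04 and -0.04 in KO 1 to KO 3, and -0.02, 0.02 and 0.00367 in WT 1 to WT 3. Genes induced by interferon gamma had 0.08, 0.15 and -0.20 in KO 1 to KO 3, and -0.03, 0.17 and 0.01 in WT 1 to WT 3, highest in KO 2 and WT 2. The part of these groups in the synthetase values was not tested. Without KO 1 and WT 2 together 0 of 41 genes passed in edgeR and 1, Mars1, had an unadjusted p under 0.05, with a mitochondrial median of 0.08 and a cytosolic median of 0.01.

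**Figure D4:**
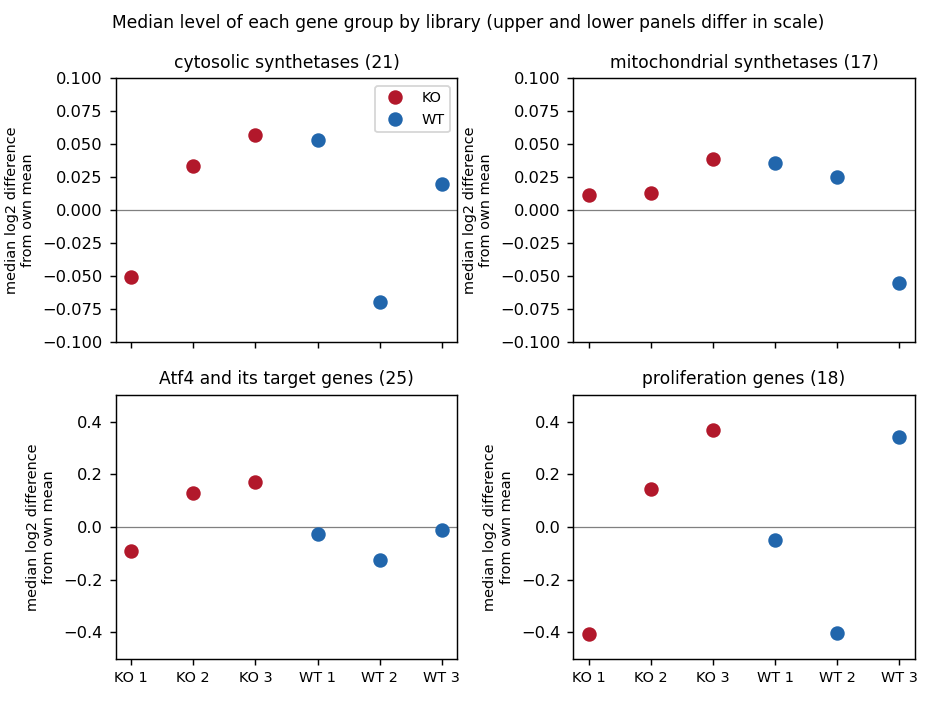
Median over the genes of each group of the log2 deviation of CPM from the gene's own mean over 6 libraries, for KO (red) and WT (blue) libraries; the upper panels span 0.1 and the lower panels 0.5 on each side of 0. Cytosolic synthetases are lowest in KO 1 (-0.05) and WT 2 (-0.07), as are Atf4 with its targets and proliferation genes, while mitochondrial synthetases are lowest in WT 3 (-0.06).

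Atf4 and 24 genes known as its targets outside the synthetase family were tested, and none passed. By edgeR 0 of the 25 reached an adjusted or an unadjusted p under 0.05. Fold changes lay above 0 for 21 of them, with a median of 0.15 on the log2 scale, beside 6308 of all 12605 tested genes. Such a lean was not particular to Atf4 and its targets. Of the 18 proliferation genes 17 lay above 0 and 1 below, with a median of 0.05 and 0 at an unadjusted p under 0.05 by edgeR. KO values lay above all WT values for 3 of the 25 (Cebpg, Ddit3 and Nupr1) and below them for 0, beside 4.05% and 4.59% of all tested genes. Atf4 itself had a log2 fold change of 0.12 (SE 0.07). The extremes were Slc7a5, a transporter of large neutral amino acids, at 0.43 (SE 0.26) and Stc2, a secreted glycoprotein, at -0.42 (SE 0.65). Trib3 had 0.37 (SE 0.33) and Vldlr, a lipoprotein receptor, -0.36 (SE 0.25). The median log2 deviation of this group was -0.09 in KO 1, 0.13 in KO 2 and 0.17 in KO 3, and -0.03 in WT 1, -0.12 in WT 2 and -0.01 in WT 3.

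Genes that act beside the synthetases were tested as well. This list held 18 genes, for the glutamyl-tRNA amidotransferase of mitochondria, selenocysteine tRNA synthesis, proofreading of mischarged tRNA, peptidyl-tRNA hydrolysis, CCA addition and tRNA export. By edgeR none passed and none reached an unadjusted p under 0.05, with 11 above 0 and a median log2 fold change of 0.05. Qrsl1, Gatb and Gatc, the amidotransferase subunits that make glutaminyl-tRNA where mitochondria lack their own enzyme, had 0.31 (SE 0.26), -0.00122 and -0.02. Prorsd1, a relative of the prolyl-tRNA editing domain, had 0.28 (SE 0.13, edgeR unadjusted p = 0.0538). Xpot, the exporter of tRNA from the nucleus, had 0.13 (SE 0.06, edgeR unadjusted p = 0.0631) and its KO values all lay above the WT values. That makes 1 of 18 on the list, beside 4.05% of all tested genes.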

How the data were processed

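Values are raw counts of reads by gene, deposited by the authors in 1 table covering 6 libraries. The submitters' processing notes list fastp, HISAT2, HTSeq and build mm10, without versions, annotation, strand setting or gene filters. Per the labels' protocols, TRIzol served for extraction and VAHTS Universal V6 for the libraries. The genes and lists were chosen with earlier results of these data known.

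Differences were tested with edgeR 4.0.16 (R 4.3.3): genes kept by filterByExpr (minimum count 10), TMM scaling, and a robust quasi-likelihood F test (legacy mode) of KO minus WT. Benjamini-Hochberg adjustment ran over 12605 genes, with 0.05 as threshold. Standard errors were derived from the F statistic (absolute log2 fold change over root F). CPM use TMM-scaled totals, and library deviations use log2(CPM + 0.5). A floor of 3 counts is between 0.0730 and 0.0813 CPM, covering counting error only. Replicates differed beyond sampling noise (chi-square per degree of freedom between 11.4 and 34.2). The steps were checked on simulated counts. Exon lengths and overlaps are from the GENCODE M21 basic set, in place of the RefSeq exons first planned; coordinates and promoters are from RefSeq, GRCm38.p6. The values of 1 of the 41 genes are not reported here singly, though it is in the counts and medians. Full values were given by rule for those at an unadjusted p under 0.05, for Wars and Wars2, and for the 3 most abundant; other genes given in detail were chosen after their values were seen. Alternatives were DESeq2 1.42.0, limma 3.58.1 voom, other scalings and filters, a replicate block, left-out libraries and other group memberships.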

Additional observations from a re-analysis of the deposited data

How the results depend on the processing

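No synthetase gene passed under any of 14 alternative analyses, the lowest adjusted p being 0.750 (Mars1 without KO 1, edgeR). No gene changed the sign of its fold change under 7 of them, which were the other scalings, filters, tools and the replicate block. Leaving out 1 library changed the sign of between 2 and 11 genes, the largest reported size among them being 0.13. The number of all genes called was 4 as reported, 16 with DESeq2, 8 with the replicate block and between 3 and 5 without 1 library. With 1 library left out the median log2 fold change of the mitochondrial enzymes ran from 0.0204 (without WT 3) to 0.0832 (without WT 1), against 0.06 as reported, and without KO 2 it was 0.0223; the cause was not tested. Mars1 had an unadjusted p under 0.05 in 13 of the 14 alternatives (not without KO 3, where p was 0.0582), and Aars2 in 8. Whether the replicate numbers pair the libraries cannot be told from these values. Deviations of same-numbered libraries correlated across genes at 0.04, -0.19 and 0.36, and KO 1 correlated best with WT 2 (0.43). Such deviations sum to 0 within a genotype, so these correlations are not independent of each other. With the block 0 of 41 synthetase genes passed. The count of genes whose KO and WT values did not overlap was 4 under both other scalings, a comparison chosen after seeing the data. Depth limits the mitochondrial genes most, where a library held as few as 112 counts.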

Other observations

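The observed spread within a genotype varied among members of the family. Each estimate rests on 3 libraries per genotype, and whether the genes differ in true spread was not tested. Pooled over both genotypes, the within-genotype standard deviation of log2 CPM was lowest for Iars2 (0.04), the mitochondrial isoleucyl enzyme, Wars (0.05) and Iars (0.06), the cytosolic isoleucyl enzyme. It was highest for Wars2 (0.23) and Nars2 (0.23). The median was 0.11 over the cytosolic genes, 0.13 over the mitochondrial genes and 0.13 over all tested genes. Exons of 13 of the 41 genes overlapped those of another gene, a share not set against all genes. For Iars2 it covered 30.5% of the exon length, with Rab3gap2 on the opposite strand, and Rab3gap2 had a log2 fold change of 0.04 beside 0.02 for Iars2.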
